A study of Mus musculus with 52 samples.

Results

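The microRNA (miRNA) precursors described here are 5 that have been linked to brown fat, chosen by miRBase identifier: mir-365-1 (MI0000768), mir-365-2 (MI0001645), mir-193a (MI0000234), mir-378a (MI0000795) and mir-455 (MI0004679). Rows for 4 of the 5 were found among the 1187 precursors of the deposited tables, and mir-193a was not analysed here. The rule itself is a list of identifiers and uses no measured value, although the list was drawn up with earlier results of these data known. The tables carry no names, so the precursor lengths implied by the count and RPKM tables together were compared with RefSeq, and they were equal for all 4 (87 bases for mir-365-1, 112 for mir-365-2, 66 for mir-378a and 82 for mir-455).

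Gonadal white fat of C57BL/6 mice aged 6 months was taken for small RNA sequencing. Besides wild-type (WT) animals there were heterozygous knock-in mice of 6 kinds, in which 1 copy of Htt, the gene of Huntington's disease, bears a CAG tract that gives the line its name (Q20, Q80, Q92, Q111, Q140 and Q175). Each genotype and sex had 4 libraries, except WT females, Q111 females, Q140 females and Q92 males with 3, which gave 25 female and 27 male libraries. The submitters' design text calls the WT mice littermate controls, but the WT libraries carry identifiers of the Q20 line, and the labels do not show them to be littermates of the Q175 mice. WT and Q20 mice shared housing, whereas each of the other genotypes was housed with its own kind, so an expanded allele and its housing cannot be told apart in any comparison below. WT and Q175 formed 1 library series (15 libraries, 1 lane), and Q20 to Q140 formed another (37 libraries, 2 lanes). The series were inferred from the first digits of the library identifiers, and no label used here names a series. Lanes were inferred from the number after the letter L in the column headers, which do not say what it stands for. Gonadal fat is periovarian in females and epididymal in males, so a sex difference is also a difference between depots. The labels do not say outright that each library came from a separate animal, so p-values measure the spread between libraries.

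A precursor is a hairpin that is cut into a mature 5p and a mature 3p miRNA. The mature strand guides silencing of messenger RNAs, mainly through its seed. In mice, the miR-193b and miR-365 cluster is enriched in brown over white fat, miR-378a lies in an intron of Ppargc1b (a transcriptional coactivator of mitochondrial metabolism) and has been tied to brown fat mass, and miR-455 has been reported to promote the brown adipocyte programme. Gonadal fat is a white depot with few thermogenic cells in unstimulated mice.

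The mature products are shown because both mir-365 genes share 1 of them, which limits how their counts can be read. Sequences are RefSeq's on GRCm38.p6, 5′ to 3′, with seed bases 2 to 8 in capitals.
miR-365-3p: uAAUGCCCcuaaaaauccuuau
miR-365-1-5p: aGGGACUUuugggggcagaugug
miR-365-2-5p: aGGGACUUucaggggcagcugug
miR-455-5p: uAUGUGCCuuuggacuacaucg
miR-455-3p: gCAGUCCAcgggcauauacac
The 3p product is letter for letter the same from mir-365-1 (chr16:13453895-13453916, plus strand) and from mir-365-2 (chr11:79726467-79726488, plus strand). The 5p products (chr16:13453855-13453877 and chr11:79726428-79726450) share a seed and differ at 3 bases outside it, U10C, G11A and A19C, counted from 1 at the 5′ end with the mir-365-1 base first. The seed of miR-365-3p and that of miR-455-3p each occurred in only 1 mature miRNA of the RefSeq table, and the seed of miR-455-5p occurred in 2. Mir365-1 (chr16:13453840-13453926) starts 4238 bases after the end of Mir193b, and Mir365-2 (chr11:79726400-79726511) starts 14365 bases after Mir193a. Mir455 (chr4:63256851-63256932, plus strand, with its products at chr4:63256867-63256888 and chr4:63256904-63256924) lies within the collagen gene Col27a1. The tables count whole precursors, so the arms could not be separated.

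Library totals ran from 1812067 to 5487948 counts (median 3783913). The first principal component of all 356 precursors tested held 45.6% of the variance, and 15 libraries lay above 5 on it, 14 male and 1 female. That female is the library labelled Q140 female replicate 2 (14.95), so leaving out these libraries and leaving out the 2 flagged next both remove it. Each library was also placed on the axis between the mean male (−0.5) and mean female (0.5) profile of the other libraries of its series. The library labelled Q140 female replicate 2 lay at −0.87 and that labelled Q140 male replicate 4 at 0.57, whereas the other females lay at 0.30 or higher and the other males at 0.28 or lower. The axis did not split the sexes at its middle, since 8 of the other males lay above 0, nearer the female mean. Each of the 2 thus lay on this axis within the range of the other sex and outside that of its own. Below they are said to go against their sex labels, which refers to this axis alone. Whether a label is wrong was not tested. Some results on sex are also given without them. Marker miRNAs for brown fat, muscle, blood or epididymis could not be looked up, because no table here pairs the identifiers with names, and the labelled tissue was not checked against markers. In bulk fat, fewer cells of a type and less RNA per cell cannot be told apart.

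Compared per length, in RPKM (reads scaled to library size and precursor length), mir-378a was the most abundant of the 4 at 196376 ± 78101 (SD, n = 52), which ranked 10 of 1187 precursors. It took 1.3% of all counts on average and from 0.325% to 2.51% in single libraries. mir-365-1 followed at 7932 ± 2342 RPKM (rank 73), then mir-455 at 889 ± 350 RPKM (rank 157) and mir-365-2 at 367 ± 185 RPKM (rank 199). mir-378a exceeded mir-365-1, and mir-365-1 exceeded mir-455, in 52 of 52 libraries. mir-455 exceeded mir-365-2 in 51 of 52, so in RPKM that order held library by library although the ranges of both overlapped. By mean count, without scaling to length, the ranks were 15, 74, 158 and 187 in the same order. In CPM, described below, WT males averaged 60.2 for mir-365-2 and 46.1 for mir-455, so the order of these 2 depended on the unit in that group. The ratio of the highest to the lowest library was 8.76 for mir-365-1, 19.0 for mir-365-2, 7.71 for mir-378a and 6.31 for mir-455.

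**Figure D1:**
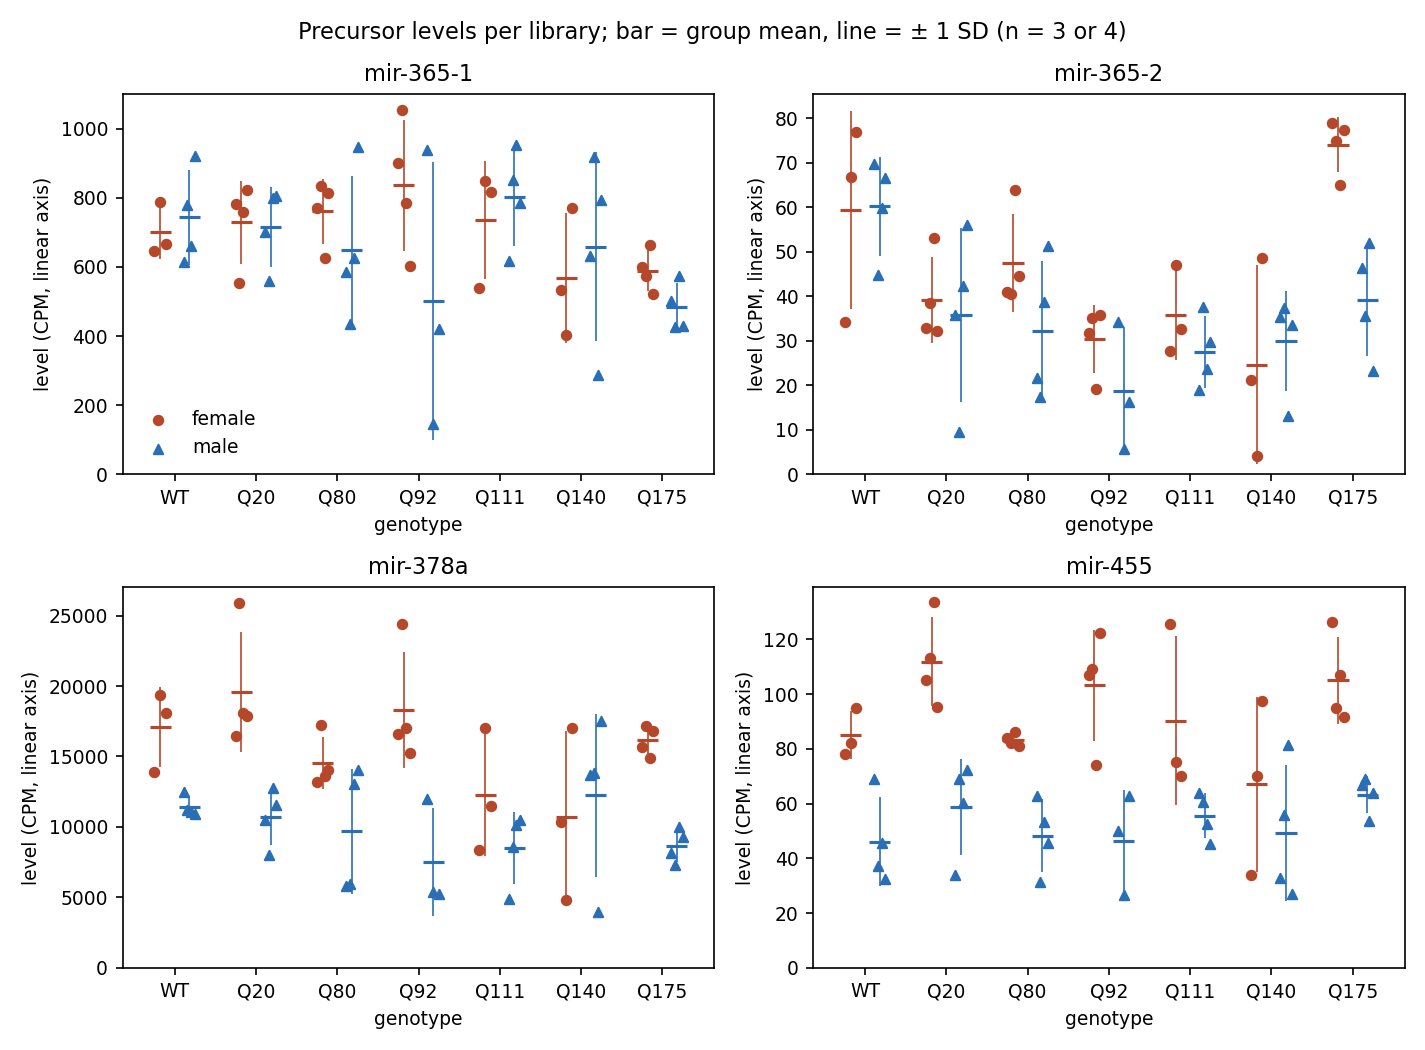
Level of each precursor in each of the 52 libraries by genotype and sex, in CPM (linear axes starting at 0). Bars are group means and vertical lines 1 SD (n = 3 or 4). For mir-455, all females lie above all males of their genotype except in Q140, and the genotypes' ranges overlap for all 4 precursors.

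Genotype means over both sexes are given in CPM, counts scaled to a common library size with edgeR's TMM factors. For mir-365-1 the lowest mean was in Q175 (536 ± 82.7, n = 8) and the highest in Q111 (773 ± 145, n = 7), with WT at 725 ± 109 (n = 7). mir-365-2 was highest in WT (59.8 ± 15.1, n = 7) and Q175 (56.7 ± 20.8, n = 8) and lowest in Q92 (25.4 ± 11.7, n = 7). For mir-378a the means ran from 10128 ± 3703 in Q111 (n = 7) to 15145 ± 5663 in Q20 (n = 8), and for mir-455 from 56.9 ± 27.2 in Q140 (n = 7) to 85.3 ± 32.4 in Q20 (n = 8). The libraries' ranges overlapped in 21 of 21 pairs of genotypes for each of the 4 precursors, so no neighbours in these orders stood apart.

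How reads were divided between the mir-365 copies could be seen in the counts. The rows of mir-365-1, mir-365-2 and mir-378a held fractional counts in 52 of 52 libraries, whereas mir-455 was whole in 52 of 52. The sum of both mir-365 rows was whole in 52 of 52 libraries (tolerance 0.001), so the fractional part of one copy completes that of the other. The rule of division is not given in the sources used here, and levels of the copies are therefore uncertain while their sum is not. The level of mir-378a is uncertain too, since the rows that share its reads were not identified.

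mir-365-2 received 5.6% ± 2.62 of the joint mir-365 counts (SD, n = 52), from 1.028% to 12.9%. The share was 8.57% ± 2.43 in the WT and Q175 series (n = 15) and 4.40% ± 1.52 in the Q20 to Q140 series (n = 37). The lowest share of the first series was 5.034%, and 13 of 37 libraries of the other series were at or above it, so the series overlapped. Within the first series the 4 Q175 females had 11.3% ± 1.65, the 4 Q175 males 7.39% ± 1.56, the 3 WT females 7.73% ± 2.66 and the 4 WT males 7.67% ± 2.07. Within the second series, the lane of 23 libraries averaged 4.08% and the lane of 14 libraries 4.93%. Inferred library series, inferred lane and genotype move together between WT or Q175 and the rest, and they cannot be told apart. The share is given as a description with no test.

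**Figure D2:**
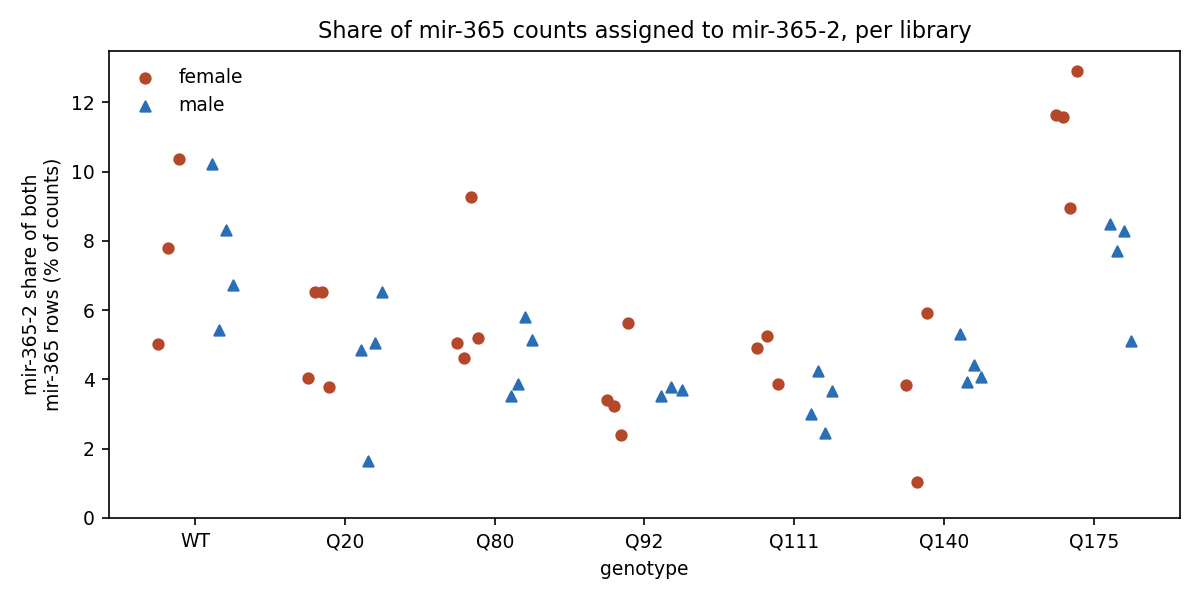
Share of the joint mir-365 counts that the deposited table assigns to mir-365-2, in percent, for each library by genotype and sex (circles female, triangles male). Most libraries of WT and Q175, which form 1 series, lie above most of the others, and 3 of the 4 Q175 females hold the highest shares, up to 12.9%.

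mir-378a and mir-455 were higher in females than in males. In females (n = 25) mir-378a had a lowest value of 4801, a median of 16607 and a highest of 25914 CPM, against 3965, 10491 and 17505 CPM in males (n = 27). The female low is the library labelled Q140 female replicate 2 and the male high is the one labelled Q140 male replicate 4. mir-378a was higher in females by 0.66 on the log2 scale (SE 0.14, 1.58-fold, adjusted p = 8.26e-05, edgeR's quasi-likelihood test with Benjamini-Hochberg adjustment over 356 precursors, with genotype as a covariate). Female and male libraries did not overlap in WT, Q20, Q92 and Q175, 4 of 7 genotypes.

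mir-455 in females ran from 33.8 through a median of 94.7 to 134 CPM, and in males from 26.7 through 53.8 to 81.4 CPM. The library labelled Q140 male replicate 4 had 27.0 CPM, below every female, and that labelled Q140 female replicate 2 had 70.0. On mir-455 both thus lay within the range of their labelled sex. The sexes did not overlap in 6 of 7 genotypes, the exception being Q140. The share of all precursors without overlap was not computed, for the sexes or for the genotypes below. A lack of overlap is therefore not read as particular to mir-378a, mir-455 or mir-365-1. The female excess of mir-455 was 0.80 log2 (SE 0.11, 1.75-fold, adjusted p = 1.09e-07 by the same edgeR test). Its ratio of female to male mean CPM was between 1.36 in Q140 and 2.22 in Q92, while that of mir-378a ran from 0.876 in Q140 to 2.43 in Q92. mir-455 thus had a higher female mean in all 7 genotypes and mir-378a in 6 of 7.

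Both mir-365 copies were closer between the sexes. mir-365-1 had 707 ± 148 CPM in females and 656 ± 213 in males, a difference of 0.13 log2 (SE 0.12, 95% interval −0.12 to 0.37, adjusted p = 0.413, edgeR). mir-365-2 had 45.0 ± 20.1 and 35.4 ± 17.0 CPM, a difference of 0.35 log2 (SE 0.18, interval −0.02 to 0.72, adjusted p = 0.106, edgeR), and their summed counts differed by 0.16 log2 (adjusted p = 0.267, edgeR). So 2 of 4 precursors rose in females and none fell, where edgeR called 22.2% of all 356 precursors higher and 26.1% lower, 48.3% in all. With 4 precursors, nothing is read from that count.

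The sex differences were computed again within each library series. In the WT and Q175 series, mir-378a was higher in females by 0.77 log2 (SE 0.09, adjusted p = 2.41e-05) and mir-455 by 0.82 (SE 0.15, adjusted p = 0.000675), where edgeR called 30.5% of precursors. In the Q20 to Q140 series the values were 0.64 (SE 0.18, adjusted p = 0.00604) and 0.83 (SE 0.14, adjusted p = 4.42e-05), with 36.2% called by edgeR. Both precursors were thus called in both series, with mir-455 differing by nearly the same amount in each. mir-365-2 differed by 0.50 log2 in the first series (adjusted p = 0.078, edgeR) and by 0.30 in the second (adjusted p = 0.322, edgeR).

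Because 14 of the 15 libraries high on the first component were male, it moved with sex. Without those 15, mir-378a was higher in females by 0.45 log2 (adjusted p = 0.000318) and mir-455 by 0.89 (adjusted p = 2.15e-06) by the same edgeR test, whereas mir-365-2 differed by 0.04. Within the WT and Q175 series the same removal left no Q175 male, so the sex difference there rests on the WT libraries alone. mir-455 was then higher in females by 0.96 log2, no longer called (adjusted p = 0.0629, edgeR). Without both Q140 libraries that go against their sex labels, mir-378a differed by 0.74 log2 and mir-365-2 by 0.42 (adjusted p = 0.0262, edgeR), so that pair decided the call on mir-365-2, and leaving out Q140 female replicate 2 alone was enough (0.42, adjusted p = 0.0268, edgeR). Leaving out WT female replicate 1 moved mir-365-2 to 0.66 log2 within the WT and Q175 series (adjusted p = 0.0107, edgeR). On leaving out any single library, the female excess over all genotypes ran from 0.77 to 0.87 log2 for mir-455 and from 0.62 to 0.72 for mir-378a.

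**Figure D3:**
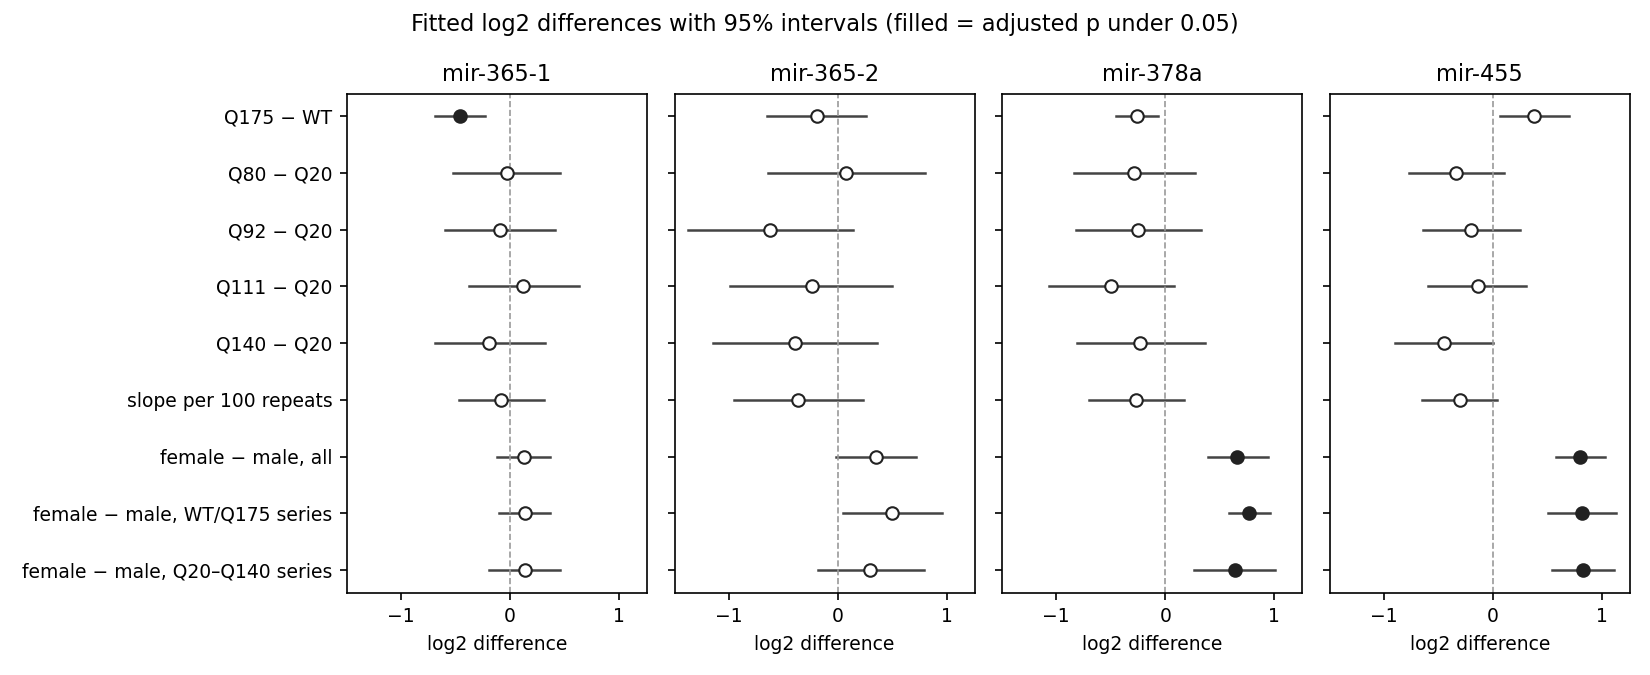
Fitted log2 differences of the 4 precursors in 9 contrasts, with 95% intervals from edgeR. Filled points have an adjusted p under 0.05. mir-378a and mir-455 are filled in all 3 female minus male contrasts, and mir-365-1 is filled for Q175 minus WT at −0.46.

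In Q175 against WT, the longest repeat against the wild type of the same series, mir-365-1 fell. WT females had 646, 788 and 667 CPM and WT males 613, 780, 659 and 920. Q175 females had 600.1, 573.9, 662.4 and 521.4 CPM and Q175 males 501.4, 425.1, 573.8 and 429.9. All 8 Q175 libraries lay below the WT median; males of both genotypes did not overlap, and females did. The change was −0.46 log2 (SE 0.11, 0.728-fold, adjusted p = 0.0282, edgeR with sex as a covariate), rank 8 by p of 308 precursors tested. Of the 308, 4.55% were called, 3.9% as lower.

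This call had little margin. The summed mir-365 counts, which do not depend on the division between copies, fell by 0.43 log2 (SE 0.11, adjusted p = 0.0379, edgeR), and DESeq2 gave −0.42 for mir-365-1 (adjusted p = 0.0136). The call was lost with RLE scaling, no count filter, limma on RPKM or the 5 most abundant precursors left out (adjusted p from 0.0565 to 0.157), and on leaving out any of 7 of the 15 libraries singly (WT female 1 or 2, WT male 2, 3 or 4, Q175 male 2 or 4). All 4 Q175 males, 1 of 4 WT males and no female of either genotype lay above 5 on the first component, and without these 5 libraries the change was −0.31 log2 (adjusted p = 0.705, edgeR). Their part in the result was not tested beyond that value, and with all Q175 males left out the fit rests on the Q175 females. Females alone gave −0.30 log2 (adjusted p = 0.458, edgeR) and males alone −0.50 (adjusted p = 0.195, edgeR), and the difference between the sexes in this change was 0.31 log2 (SE 0.21, adjusted p = 0.849, edgeR).

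mir-365-2, the copy with few assigned counts, behaved differently by sex in its values. It had 34.3, 66.8 and 77.0 CPM in WT females and 79.0, 75.0, 65.1 and 77.3 in Q175 females. WT males had 69.7, 44.7, 59.8 and 66.6 CPM and Q175 males 46.4, 35.6, 51.9 and 23.2. The genotypes overlapped in both sexes, and the difference over both was −0.19 log2 (SE 0.21, interval −0.65 to 0.26, adjusted p = 0.621, edgeR). Its sex interaction was 0.88 log2 (SE 0.37, unadjusted p = 0.031, adjusted p = 0.744, edgeR), which did not pass. Of the 308 precursors, 0 passed that interaction test by edgeR, DESeq2 or limma, and 16 had an unadjusted p under 0.05 by edgeR.

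mir-378a was lower in Q175 males, with 8170, 7275, 9968 and 9293 CPM, than in WT males, with 12495, 11210, 11038 and 10936, and these did not overlap. Q175 females had 15703, 17179, 14924 and 16772 CPM and overlapped WT females at 13908, 19354 and 18067. The difference over both sexes was −0.26 log2 (SE 0.09, interval −0.45 to −0.07), which missed the threshold at an adjusted p of 0.0807 (edgeR). All 4 Q175 males were above 5 on the first component, between 9.12 and 13.24, and so was WT male replicate 3 at 10.84 (11038 CPM of mir-378a). Without these 5 libraries the difference was −0.15 log2 (adjusted p = 0.81, edgeR). That fit rests on the Q175 females, and females alone gave −0.13 log2 (adjusted p = 0.709, edgeR). The component's part in the lower values of Q175 males was not tested.

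mir-455 had higher values in Q175. The WT females had 78.1, 82.1 and 94.9 CPM against 126, 94.7, 107 and 91.7 in Q175 females. WT males had 69.1, 37.1, 45.6 and 32.4 CPM against 66.8, 68.8, 53.8 and 63.7 in Q175 males. Both sexes overlapped between genotypes, and the difference was 0.38 log2 (SE 0.15, interval 0.07 to 0.70, adjusted p = 0.117, edgeR). Leaving out WT male replicate 1, the highest of its group, gave 0.55 log2 and a call (adjusted p = 0.0216, edgeR). The difference was 0.25 (adjusted p = 0.831, edgeR) without the libraries above 5 on the first component, and 0.26 (adjusted p = 0.557, edgeR) in females alone. All 4 Q175 males were among those left out, so both fits rest on the Q175 females and are not separate checks.

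Within the Q20 to Q140 series none of the 4 precursors passed in any comparison of a longer allele with Q20, the non-expanded knock-in control, nor in the slope on repeat length. edgeR called 1.45% of 345 precursors in Q80, 4.06% in Q92, 0% in Q111, 0.29% in Q140 and 0.29% for the slope. For Q111, 56 precursors had an unadjusted p under 0.05 by edgeR, and DESeq2 and limma called 2 each. limma called none of the 4 brown fat precursors in these comparisons, nor did DESeq2 where it gave an adjusted p, which for mir-365-2 and mir-455 in Q111 it did not. The 4 comparisons share the Q20 libraries.

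mir-365-1 changed least in value: −0.03 log2 in Q80, −0.09 in Q92, 0.12 in Q111 and −0.19 in Q140, each with an SE of 0.24 or 0.25. With intervals reaching from −0.69 to 0.63 over the 4 alleles, a change of the size seen in Q175 lies inside the interval of every comparison but that of Q111. mir-365-2 had 33.0, 38.5, 53.1 and 32.2 CPM in Q20 females and 35.8, 9.41, 42.4 and 56.0 in Q20 males. Q92 females had 31.7, 35.1, 19.1 and 35.7 CPM, and Q92 males had 34.3, 5.80 and 16.2. All 7 Q92 libraries were below the Q20 median, 6 of them inside the Q20 range and Q92 male replicate 2 below it, and the difference of −0.62 log2 (SE 0.37, adjusted p = 0.351, edgeR) did not pass.

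mir-378a was lower than Q20 in value for each longer allele over both sexes, although the Q92 difference was 0.01 without the libraries above 5 on the first component. The log2 differences were −0.29 in Q80, −0.25 in Q92, −0.50 in Q111 (SE 0.28, adjusted p = 0.398, edgeR) and −0.23 in Q140. Q111 females had 8339, 16987 and 11519 CPM and Q111 males 4882, 8561, 10117 and 10491, while Q20 females had 16416, 25914, 18092 and 17870 and Q20 males 10495, 8013, 12772 and 11589. All 4 intervals included 0, with upper ends from 0.08 in Q111 to 0.36 in Q140. Without the libraries above 5 on the first component, the Q111 difference was −0.48 log2 (adjusted p = 0.0904, edgeR).

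mir-455 was also lower than Q20 in value for each allele. The exception was Q111, where the difference of −0.14 log2 became 0.01 with limma on RPKM and 0.05 with lane as a covariate. Q20 females had 105, 113, 134 and 95.3 CPM, Q80 females 84.0, 82.3, 86.1 and 81.0, and these groups did not overlap, whereas Q20 males (33.8, 69.0, 60.2 and 72.4) and Q80 males (62.8, 31.3, 53.4 and 45.5) did. The Q80 difference over both sexes was −0.34 log2 (SE 0.21, adjusted p = 0.412, edgeR). The Q140 difference was −0.45 log2 (SE 0.22, unadjusted p = 0.0477, adjusted p = 0.257, edgeR), which did not pass. It was −0.25 (adjusted p = 0.703, edgeR) without both Q140 libraries that go against their sex labels, and from −0.59 to −0.23 on leaving out single libraries. The slopes per 100 added repeats were −0.08 log2 for mir-365-1, −0.36 for mir-365-2, −0.27 for mir-378a and −0.30 for mir-455 (SE 0.17, adjusted p = 0.345, edgeR, the smallest of the 4). No difference in slope between the sexes passed. For mir-378a it was −0.66 log2 (SE 0.42, adjusted p = 0.861, edgeR), and −0.29 (adjusted p = 0.905, edgeR) without both Q140 libraries that go against their labels. For mir-455 it was −0.23 (adjusted p = 0.981, edgeR), and −0.38 (adjusted p = 0.905, edgeR) without them.

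Q20 against WT crosses the library series, so allele and series cannot be told apart, and the values are given only beside the background of 34.3% of 356 precursors called by edgeR. mir-365-1 differed by −0.02 log2, mir-378a by 0.05 and mir-455 by 0.38 (adjusted p = 0.146, edgeR). mir-365-2 differed by −0.71 log2 (SE 0.34, adjusted p = 0.0951, edgeR). The last value sits beside the lower mir-365-2 share of the whole Q20 to Q140 series.

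The last question was whether the 4 precursors varied together among libraries of the same genotype and sex. For each of 6 pairs, log2 CPM was taken as the deviation from the mean of its genotype and sex group, and p came from 100000 permutations within groups. mir-365-2 and mir-378a had Pearson's r = 0.743 (p = 2e-05, adjusted p = 6e-05) and Spearman's rho = 0.681 (adjusted p = 0.00024, permutation, n = 52). mir-365-1 and mir-378a had r = 0.706 (p = 1e-05, the smallest these permutations can give, adjusted p = 6e-05) and rho = 0.629 (adjusted p = 0.00033). The mir-365 copies, which share reads, had r = 0.683 (adjusted p = 0.00018, permutation) and rho = 0.559 (adjusted p = 0.00064). These 3 pairs passed, and mir-455 was in none of them. The mir-365 rows divide shared reads by a rule that is not given, so the p of that pair cannot show that the 2 genes vary together. For the same reason, the pairs of mir-378a with each copy are not separate results. The share of passing pairs among other precursors was not computed, so the passes are not read as particular to the 4 precursors.

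The pairs of mir-455 gave r = −0.014 with mir-365-1 (adjusted p = 0.952, permutation), 0.085 with mir-365-2 (adjusted p = 0.881) and −0.223 with mir-378a (adjusted p = 0.542), and rho of −0.123, 0.129 and −0.171 (adjusted p = 0.501 for each). Without the 2 libraries farthest from the median of the first precursor, the 3 passing pairs gave r = 0.708, 0.682 and 0.616 in the order above. Within the Q20 to Q140 series (n = 37) they gave 0.765, 0.732 and 0.715, and within the WT and Q175 series (n = 15) 0.488, 0.143 and 0.298. The relations were thus weaker in value in the smaller series. In that series mir-455 gave r = −0.585 with mir-365-1, 0.175 with mir-365-2 and 0.064 with mir-378a, against 0.040, 0.074 and −0.248 in the larger one. Among the 35 libraries left in groups of more than 1 after removing those above 5 on the first component, they were 0.458, 0.359 and 0.171, lower for each pair than over all libraries, whereas the pairs of mir-455 gave −0.021 with mir-365-1, 0.539 with mir-365-2 and 0.077 with mir-378a. No p was computed for these subsets.

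**Figure D4:**
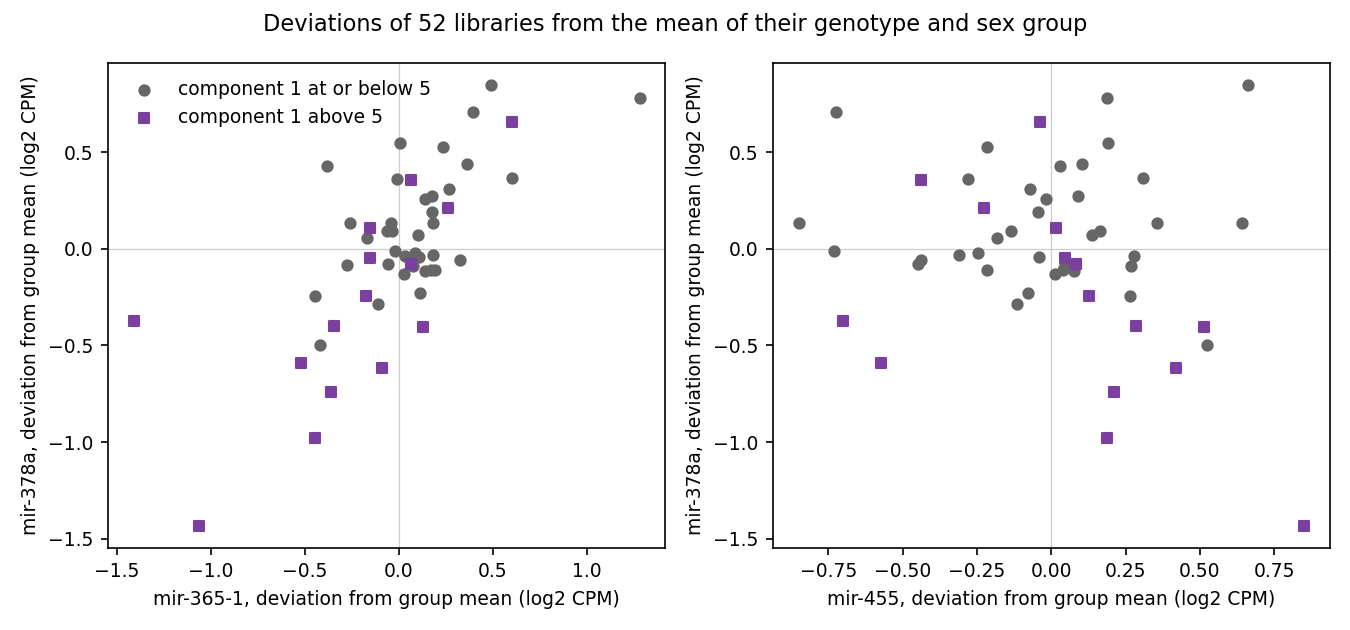
Deviation of each of 52 libraries from the mean of its genotype and sex group in log2 CPM, for mir-378a against mir-365-1 (left, r = 0.706) and against mir-455 (right, r = −0.223). Squares are the 15 libraries above 5 on the first principal component, and both libraries lowest in mir-365-1 are among them.

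That component also marked the libraries lowest in 3 of the 4 precursors. Of the 10 males lowest in mir-365-1, 10 lay above 5 on it, against 14 of all 27 males. The same held for 9 of the 10 males lowest in mir-378a, 8 in mir-365-2 and 5 in mir-455. Median levels in males above and at or below 5 were 530 and 800 CPM for mir-365-1, 22.4 and 37.6 for mir-365-2, 7644 and 11589 for mir-378a, and 62.8 and 52.5 for mir-455. mir-455 was thus the 1 precursor of the 4 whose median was higher, not lower, in the males above 5. The component held 45.6% of the variance of 356 precursors, and the share of other precursors low in the same libraries was not computed. These counts are therefore not read as particular to the 4 precursors. Each of the 4 contributes to the component, and the component's part in the genotype differences was not tested beyond the values given without those libraries.

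The precursors most like each one across all 52 libraries, among 239 others with a mean of at least 10 CPM, are given by identifier. By Spearman's rho of log2 CPM, mir-378a was closest to MI0000246 (0.933) and MI0004692 (0.885), and mir-455 to MI0000154 (0.708) and MI0003521 (0.663). mir-365-1 was closest to MI0003491 (0.709) and MI0000640 (0.681), and mir-365-2 to MI0000588 (0.761) and MI0012531 (0.721). These values include the differences between sexes and series, and points share libraries, so no p is given.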

How the data were processed

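Small RNA from 52 gonadal fat libraries was tabulated per miRNA precursor in 2 tables that the authors deposited: expected counts, fractional where reads were shared between rows, and RPKM. Per the submitters' processing notes CASAVA 1.8.2 was used; no aligner, counter, miRBase release or rule for shared reads is stated in the sources used. Of the count values, 89.1% were whole (tolerance 1e-04). Expected counts were rounded to whole numbers, where the design had assumed whole counts, and tested with edgeR 4.0.16 in R 4.3.3 (TMM, robust quasi-likelihood F test, Benjamini-Hochberg over all precursors with at least 10 counts in 7 of the libraries fitted, threshold 0.05). Intervals are 95%, from the t distribution at the fit's degrees of freedom. Genotype fits had sex, and sex fits genotype, as covariate. CPM refers to TMM-scaled library sizes, with log2 values at a prior count of 2. DESeq2 1.42.0, limma 3.58.1 on log2(RPKM + 1) or log2(RPKM + 0.1), other scalings and filters, summed mir-365 rows, left-out libraries, a replicate block and lane as a covariate were alternatives. The axis between the sexes' mean profiles used log2(CPM + 1) and was added after the data were seen. The edgeR step was tested on simulated data. The closest libraries of any group differed far beyond counting noise (chi-square per degree of freedom 26.2). All 4 precursors with rows were named in every comparison, with 2 like precursors each. The members, lists and left-out libraries were chosen with earlier results of these data known. The 76 names in 10 lists of fat, brown fat and other cell type miRNAs matched 0 identifiers, so no list was tested. Relations were planned for 10 pairs and made for 6, since mir-193a was not analysed. The sequence and position of mir-378a are not reported here.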

Additional observations from a re-analysis of the deposited data

Results flagged for a closer look

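In 40 tests of a library against the rest of its group of 4, 1 library stood apart. mir-365-2 in Q140 male replicate 3 had 13.2 CPM, while the other 3 libraries of the group had 33.5 to 37.4 CPM. Chance flags about 1 in 20 such groups, so 1 of 40 is within what chance gives. The same library was also lowest of its group in mir-365-1 (288 CPM) and mir-378a (3965 CPM) and highest in mir-455 (81.4 CPM), and it lay at 32.23 on the first principal component.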

How the results depend on the processing

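Values recomputed under other settings, leaving out single libraries apart, were each precursor's differences, the number of precursors called, and the correlations. Of these, 669 were unchanged, 45 reversed, 19 lost and 7 gained a call, and 1 count moved. For a difference, unchanged means the same direction and the same side of the threshold. For a count it means a similar number, and for a correlation the same direction only. A lost or gained call can enter both as a difference and as a count, so entries are not separate events. The number of the 4 precursors called in Q175 against WT was 1 and became 0 with RLE scaling, no filter, limma at either pseudocount, the 5 most abundant precursors left out, the replicate block, the libraries above 5 on the first component left out, females alone or males alone; leaving out single libraries gave 0 to 2, and the mir-365-1 change −0.50 to −0.37. Same-numbered libraries did not deviate together (mean correlation −0.025 over 318 pairs), so the numbers do not pair them, and the replicate block (mir-365-1 −0.46, adjusted p = 0.0577, edgeR) changed no other call on the 4. Females against males within the WT and Q175 series called 1 rather than 2 without the libraries above 5. There mir-455 (0.96, adjusted p = 0.0629, edgeR) missed the threshold with fewer libraries and no Q175 male left. Q20 against WT called 1 rather than 0 under DESeq2, the 50-count filter and without the libraries above 5, and 0 to 1 on leaving out single libraries, WT female 1 or Q20 male 4 giving the call; in each case it was mir-365-2. Among all precursors, calls in Q175 against WT ran from 0 to 26 around 14, in Q80 from 0 to 11 around 5, in Q92 from 0 to 15 around 14, in Q111 from 0 to 2 around 0, in Q140 from 0 to 14 around 1 and for the slope from 0 to 6 around 1. For sex in the WT and Q175 series they fell from 94 to 16 without the libraries above 5, with no Q175 male left.

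All reversals were of values that had not passed, and their cause was not tested. Without the libraries above 5, the log2 values were 0.27 for mir-365-2 in Q175, 0.08, 0.23, 0.00 and 0.07 for mir-365-1 in Q80, Q92, Q140 and the slope, 0.01 for mir-378a in Q92, −0.10, −0.05 and −0.12 for mir-365-1 by sex overall and in each series, 0.35 for mir-365-2 in the sex interaction with the slope, 0.03 for mir-365-1 in Q20 against WT and r = 0.077 for mir-378a with mir-455. Females alone gave 0.28 for mir-365-2 in Q175, 0.17 and 0.23 for mir-365-1 in Q80 and Q92 and 0.04 for mir-365-2 in Q111. Males alone gave −0.11 for mir-365-2 in Q80, and 0.23 and 0.07 for mir-378a in Q140 and the slope. For mir-365-1 in Q80 (−0.03), DESeq2 and RLE gave 0.01, no filter 0.04, the 50-count filter 0.02, limma 0.19, the 5 most abundant left out 0.03, lane 0.03 and both Q140 libraries that go against their labels left out 0.01. In Q111, limma gave 0.04 for mir-365-2 and 0.01 for mir-455, and lane 0.12 and 0.05. Without both Q140 libraries the sex interaction with the slope was 0.09 for mir-365-1 and 0.21 for mir-365-2. In Q20 against WT, mir-378a was −0.04 with the 50-count filter and −0.22 with limma, and mir-365-1 was 0.01 with the 5 most abundant left out or without both Q140 libraries. On the RPKM scale r was 0.199 for mir-365-1 and 0.023 for mir-378a with mir-455; series alone gave 0.04 (Q20 to Q140) and 0.064 (WT and Q175). Leaving out single libraries, the ranges that changed sign for mir-365-1 were −0.10 to 0.02 in Q20 against WT, −0.08 to 0.05 in Q80, −0.22 to 0.14 in Q92, −0.14 to 0.02 for the slope and −0.21 to 0.06 for its sex interaction. For mir-365-2 they were −0.01 to 0.22 in Q80 and −0.38 to 0.15 in the interaction, and for mir-378a −0.08 to 0.08 in Q20 against WT. limma on RPKM moved the median of all precursors by 0.24 log2 in Q80, 0.20 in Q111, 0.16 in Q140, 0.13 for the slope and −0.29 in Q20 against WT.

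Groups of 3 or 4 libraries, fractional sharing of mir-365 and mir-378a reads and 1 housing scheme per genotype limit these values. mir-365-2 is the least certain, with the fewest counts of the 4.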
